A study of Mus musculus with 17 samples.

Results

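The proteasome genes of mouse CD8+ T cells were followed across brain and blood of APP-PS1 and wild type (WT) mice. The members were all genes of the count table whose symbol starts with Psma, Psmb, Psmc, Psmd or Psme and a digit, without pseudogene entries, which gave 45 of 48709 genes listed. At least 1 count was recorded for 43 of them, and 32 were abundant enough to be tested. The interferon-induced members Psmb8, Psmb9, Psmb10, Psme1 and Psme2 were compared with the constitutive ones. The brain libraries numbered 5 for WT and 4 for APP-PS1 mice, the blood libraries 5 and 3. APP-PS1 mice carry a chimeric mouse and human amyloid precursor protein with the Swedish mutation and the mutant human presenilin 1 named PS1-dE9. Both transgenes are driven by the prion protein promoter and directed to neurons of the central nervous system. Whether the T cells themselves express them was not tested. The series title speaks of aged and of transgenic mice, and ages of single animals were not analysed here.

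The proteasome is the barrel-shaped protease that degrades ubiquitin-tagged proteins. Its core has outer rings of alpha subunits (Psma genes), which gate the entry, and inner rings of beta subunits (Psmb genes), which hold the active sites of Psmb5, Psmb6 and Psmb7. A regulatory particle of ATPases (Psmc genes) and non-ATPases (Psmd genes) recognises and unfolds the substrate. Interferon gamma induces replacements for the active subunits, Psmb8 for Psmb5, Psmb9 for Psmb6 and Psmb10 for Psmb7, which form the immunoproteasome, and the PA28 cap encoded by Psme1 and Psme2. The immunoproteasome is known for making peptides for MHC class I and is abundant in lymphocytes also without infection.

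The libraries were shallow, with 27646 to 214670 counts, and the 3 APP-PS1 blood libraries held 39055 to 46336. WT mice were all female, while only 1 of 4 APP-PS1 brain libraries and 1 of 3 APP-PS1 blood libraries were, so strain and sex cannot be fully told apart. All 6 CD8 T cell markers (Cd3d, Cd3e, Cd3g, Cd8a, Cd8b1 and Trac) had counts in every group, with sums of 4554 to 8346 CPM (counts relative to the library total). Cd4, the neutrophil markers, the B cell gene Ms4a1 and the microglial genes P2ry12, Tmem119 and C1qa were at 0 in all groups. Other B cell and myeloid markers had counts in every group. The highest sum of 6 B cell markers was 97.7 CPM in WT brain, 419 in WT blood, 574 in APP-PS1 brain and 302 in APP-PS1 blood. For 11 microglial and other myeloid markers it was 109, 308, 178 and 195 CPM in these groups. The sum of 4 haemoglobin genes lay at 36.2 to 873 CPM in brain libraries and at 2152 to 9967 CPM in blood libraries, and its part in the comparisons of brain with blood was not tested. The 2 shallowest libraries resembled their group least: APP-PS1 brain replicate 1 (Spearman correlation of 0.636 with the mean of its group mates) and APP-PS1 blood replicate 1 (0.655). APP-PS1 blood replicates 3 and 2 were close to the latter, at 0.662 and 0.688. Preparation differed between the tissues, with myelin removal for brain and lysis of red cells for blood, and cannot be told apart from tissue. In such bulk libraries, fewer cells of a type and less RNA per cell cannot be told apart either. The labels do not say which libraries share an animal, and the p-values reflect only the spread among these libraries, part of which may be technical.

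The proteasome genes together took nearly the same share of the counts in all 4 groups. In WT mice their summed level was 8503 ± 682 CPM (SD, n = 5) in brain and 8576 ± 647 (SD, n = 5) in blood. The APP-PS1 sums were 8568 ± 489 CPM (SD, n = 4) in brain and 8585 ± 921 (SD, n = 3) in blood. The 4 means differed by less than 1 SD of any group. The 5 interferon-induced genes summed to 2736 ± 274 CPM in WT brain, 2627 ± 324 in WT blood, 2851 ± 237 in APP-PS1 brain and 2490 ± 247 in APP-PS1 blood. As a share of all proteasome counts, they made up 32.2% ± 2.48 in WT brain, 30.6% ± 2.71 in WT blood, 33.4% ± 3.78 in APP-PS1 brain and 29.02% ± 0.298 in APP-PS1 blood. The ranges of this share overlapped between brain and blood in both strains. In APP-PS1 mice the brain libraries spanned 28.3% to 36.8% and the blood libraries 28.7% to 29.3%. Counts were concentrated in few members: of 13201 proteasome counts in all libraries, the alpha ring gene Psma7 (2341 counts) and the immunoproteasome gene Psmb8 (1996 counts) held 32.9%, and the 10 members with the most counts held 68.4%. Another 14 members had fewer than 100 counts over all 17 libraries.

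**Figure D1:**
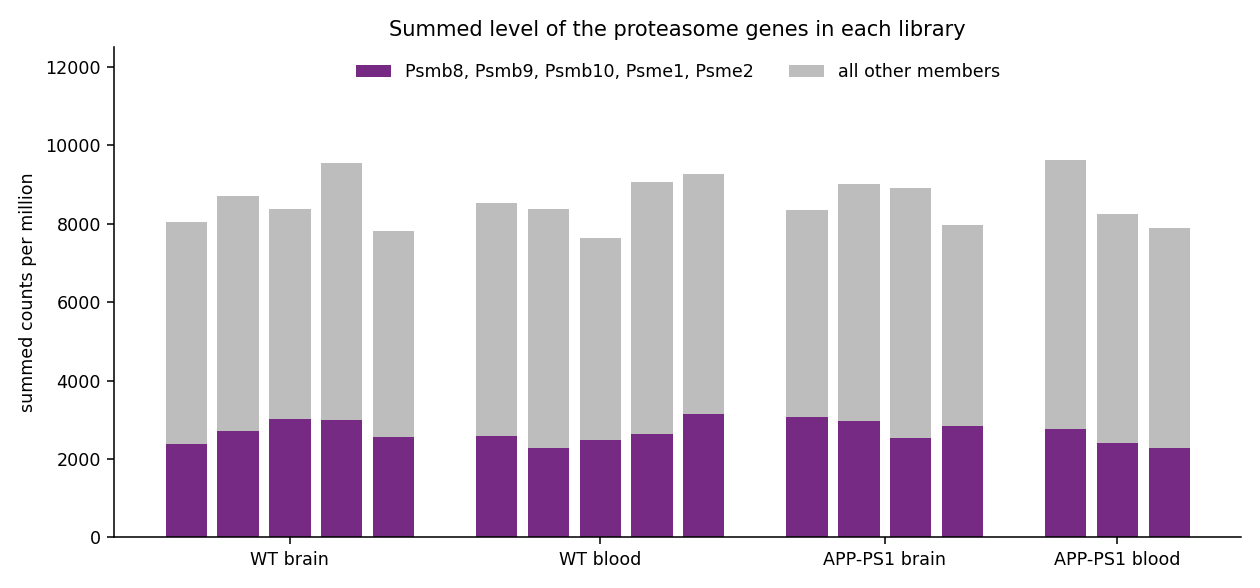
Summed CPM of the proteasome genes in each library (1 bar per library, grouped by strain and tissue), split into the 5 interferon-induced genes and all other members. Every total lies between 7626 and 9627 CPM, and the interferon-induced part lies between 2278 and 3153 CPM.

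The active-site genes were mostly of the immunoproteasome type in every library. Psmb8, Psmb9 and Psmb10 held 80.0% ± 4.61 (SD, n = 5) of the counts of the 6 active-site genes in brain and 78.6% ± 2.73 (SD, n = 5) in blood of WT mice. In APP-PS1 mice the share was 81.0% ± 2.34 (SD, n = 4) in brain and 76.04% ± 3.46 (SD, n = 3) in blood. The lowest library was APP-PS1 blood replicate 2 at 73.6% (95% exact Clopper-Pearson interval 63.3 to 82.3) and the highest WT brain replicate 3 at 86.2% (78.8 to 91.7). Brain and blood ranges overlapped in both strains, and in APP-PS1 mice by 1 blood library, with 77.8% to 83.3% in brain and 73.6% to 80.0% in blood. With the counts of a group pooled, the exact 95% intervals of APP-PS1 brain (78.4% to 84.1%) and APP-PS1 blood (70.4% to 80.9%) overlapped as well. No test was made on this share, and a shift is neither shown nor excluded. These shares are of counts, and longer transcripts can collect more of them if reads cover whole transcripts, which is not known here. Divided by transcript length, the share was 69.0% ± 6.03 in WT brain, 67.3% ± 3.61 in WT blood, 70.7% ± 2.59 in APP-PS1 brain and 63.1% ± 4.38 in APP-PS1 blood, and at least 59.6% in each library.

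The 3 exchanges of constitutive for interferon-induced subunits differed in their balance. Psmb8 provided 91.2% ± 3.32 of the counts of Psmb8 plus Psmb5 in WT brain, 91.1% ± 1.80 in WT blood, 93.1% ± 2.23 in APP-PS1 brain and 89.6% ± 2.06 in APP-PS1 blood. Psmb10 provided 82.1% ± 16.9, 85.0% ± 10.3, 72.4% ± 27.1 and 90.5% ± 16.5 of the counts of Psmb10 plus Psmb7 in these groups, on few Psmb7 counts. Psmb9 was nearer to balance with Psmb6. Its share of Psmb9 plus Psmb6 counts was 53.0% ± 8.75 in WT brain, 44.7% ± 12.0 in WT blood, 57.1% ± 3.22 in APP-PS1 brain and 30.4% ± 16.4 in APP-PS1 blood. In the 4 APP-PS1 brain libraries this share was 52.6%, 57.8%, 57.6% and 60.3%, and in the 3 APP-PS1 blood libraries 46.4%, 13.6% and 31.3%. These APP-PS1 groups did not overlap, whereas WT brain (42.5% to 64.5%) and WT blood (29.2% to 60.3%) did. The blood values rest on 21 Psmb9 and 45 Psmb6 counts in all. The exact 95% interval of the lowest library, APP-PS1 blood replicate 2, ran from 2.91% to 34.9%, and that of the nearest brain library, APP-PS1 brain replicate 1, from 28.9% to 75.6%. No test was made on this share. Over all 2366 genes tested, 9.04% had CPM values that did not overlap between APP-PS1 brain and APP-PS1 blood. That rate is for the CPM of single genes, and none was computed for shares of 2 genes. The CPM of Psmb9 and of Psmb6 each overlapped between these groups.

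**Figure D2:**
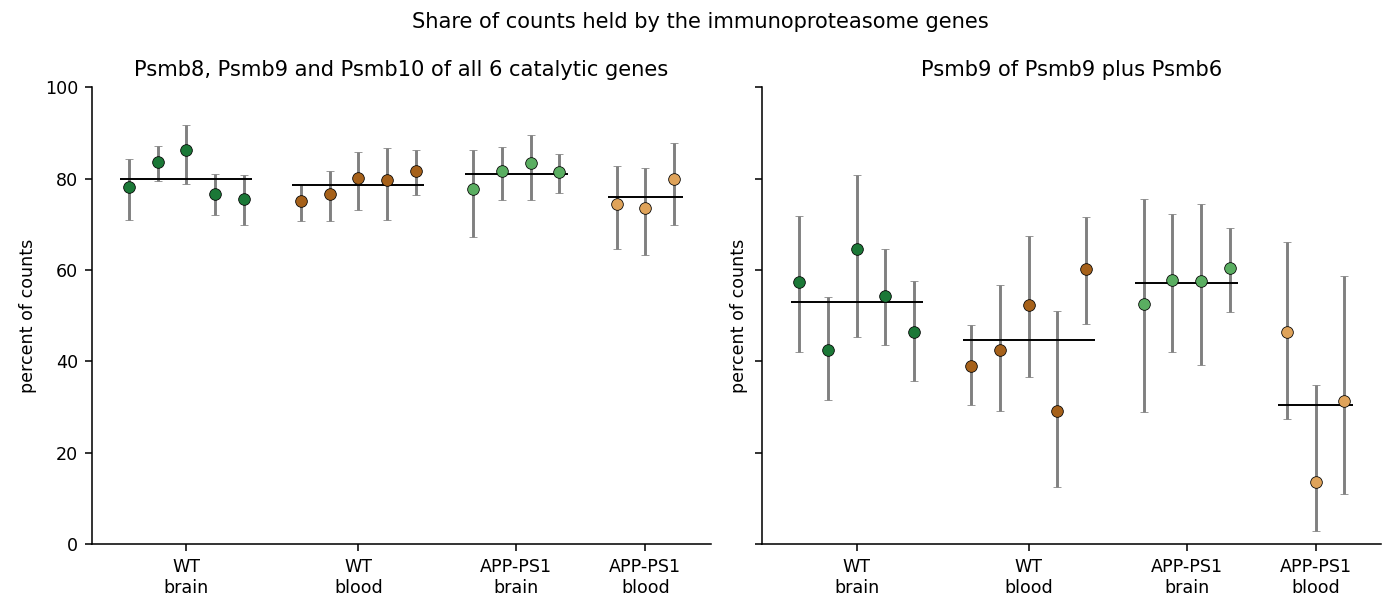
Left, percent of the counts of the 6 active-site genes that came from Psmb8, Psmb9 and Psmb10; right, percent of Psmb9 plus Psmb6 counts that came from Psmb9. Points are libraries with exact 95% intervals (counting error only) and black lines are group means. The left share stays between 73.6% and 86.2% in all libraries, and on the right the 3 APP-PS1 blood libraries lie below the 4 APP-PS1 brain libraries.

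Psmb8 encodes the immunoproteasome subunit with chymotrypsin-like activity and lies at chr17:34197721-34201454 (plus strand, GRCm38) in the MHC region, 495 bases beyond the end of the peptide transporter gene Tap1. Its level was 1198, 1607, 1407, 1525 and 1346 CPM in the 5 WT brain libraries and 1141, 1075, 992, 1070 and 1287 CPM in the 5 WT blood libraries. The APP-PS1 libraries had 1809, 1147, 1209 and 1456 CPM in brain and 1408, 1122 and 1362 CPM in blood. Only 1 WT blood library reached the range of WT brain, and the APP-PS1 groups overlapped widely. The log2 fold change of brain over blood was 0.28 (SE 0.21) in WT and 0.08 (SE 0.27) in APP-PS1 mice. Both 95% intervals, -0.15 to 0.71 and -0.46 to 0.62, lie within a 2-fold change. Of the 32 members tested, Psmb8 had the lowest estimated biological coefficient of variation (0.234, against a median of 0.399 over all genes tested), at a level above 95.7% of the genes tested.

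Psmb9 encodes the subunit that takes the place of Psmb6 and lies at chr17:34181987-34187764 (minus strand), head to head with Tap1. The annotated genes overlap by some bases, where the counting could split or drop reads. Psmb9 was at 367, 200, 391, 387 and 417 CPM in WT brain and at 233, 182, 256, 112 and 432 CPM in WT blood. The APP-PS1 libraries were at 362, 304, 338 and 548 CPM in brain and at 333, 64.7 and 122 CPM in blood. Most brain libraries lay above most blood libraries, but WT brain replicate 2 fell among the blood values and 1 blood library of each strain (WT replicate 5 and APP-PS1 replicate 1) among the brain values. In both strains the groups thus overlapped. The log2 fold change of brain over blood was 0.42 (SE 0.33, 95% interval -0.24 to 1.09, adjusted p = 0.832 by edgeR's quasi-likelihood test) in WT mice. The APP-PS1 value was 1.24 (SE 0.48, 95% interval 0.28 to 2.19, unadjusted p = 0.0121, adjusted p = 0.287). Leaving out 1 library at a time gave 0.89 to 2.03, the highest without APP-PS1 blood replicate 1 (adjusted p = 0.151). Among female libraries, with 1 APP-PS1 library per tissue, the value was 2.26. The difference between the strains in this change was 0.81 (SE 0.58, adjusted p = 0.999) and was not called.

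Averaged over the strains, Psmb9 was 1.78-fold higher in brain than in blood (95% interval 1.19 to 2.66), or 0.83 on the log2 scale (SE 0.29, unadjusted p = 0.00595). The adjusted p of 0.122 was above the threshold of 0.05. Single libraries decided this call. Without WT blood replicate 5 the log2 fold change was 0.99 (adjusted p = 0.0415), without APP-PS1 blood replicate 1 it was 1.22 (adjusted p = 0.0397), and without both libraries least like their group it was 1.25 (adjusted p = 0.0342). Over all 26 settings run for this comparison the value was positive in 26, from 0.64 to 1.33, with adjusted p from 0.0342 to 0.373. Between strains, Psmb9 had a log2 fold change of 0.15 (SE 0.35) in brain and of -0.66 (SE 0.46) in blood, APP-PS1 over WT, and neither was called. The blood value of Psmb9 was -1.45 without APP-PS1 blood replicate 1, -0.34 without APP-PS1 blood replicate 2 and -0.37 without WT blood replicate 5, and it was -0.37 with sex as a term and -1.17 among female libraries.

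Psmb10, on chr8:105935735-105938444 (minus strand), encodes the interferon-induced subunit with trypsin-like activity. It was at 136, 171, 274, 182 and 209 CPM in WT brain and at 238, 245, 234, 256 and 304 CPM in WT blood. Among APP-PS1 libraries it was at 109, 269, 231 and 188 CPM in brain and at 128, 259 and 170 CPM in blood. The WT blood libraries were close to each other and 4 of the 5 WT brain libraries lay below them, while the APP-PS1 groups overlapped fully. The log2 fold change of brain over blood was -0.49 (SE 0.34, 95% interval -1.16 to 0.19) in WT and 0.13 (SE 0.47, 95% interval -0.81 to 1.06) in APP-PS1 mice, neither of which was called.

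**Figure D3:**
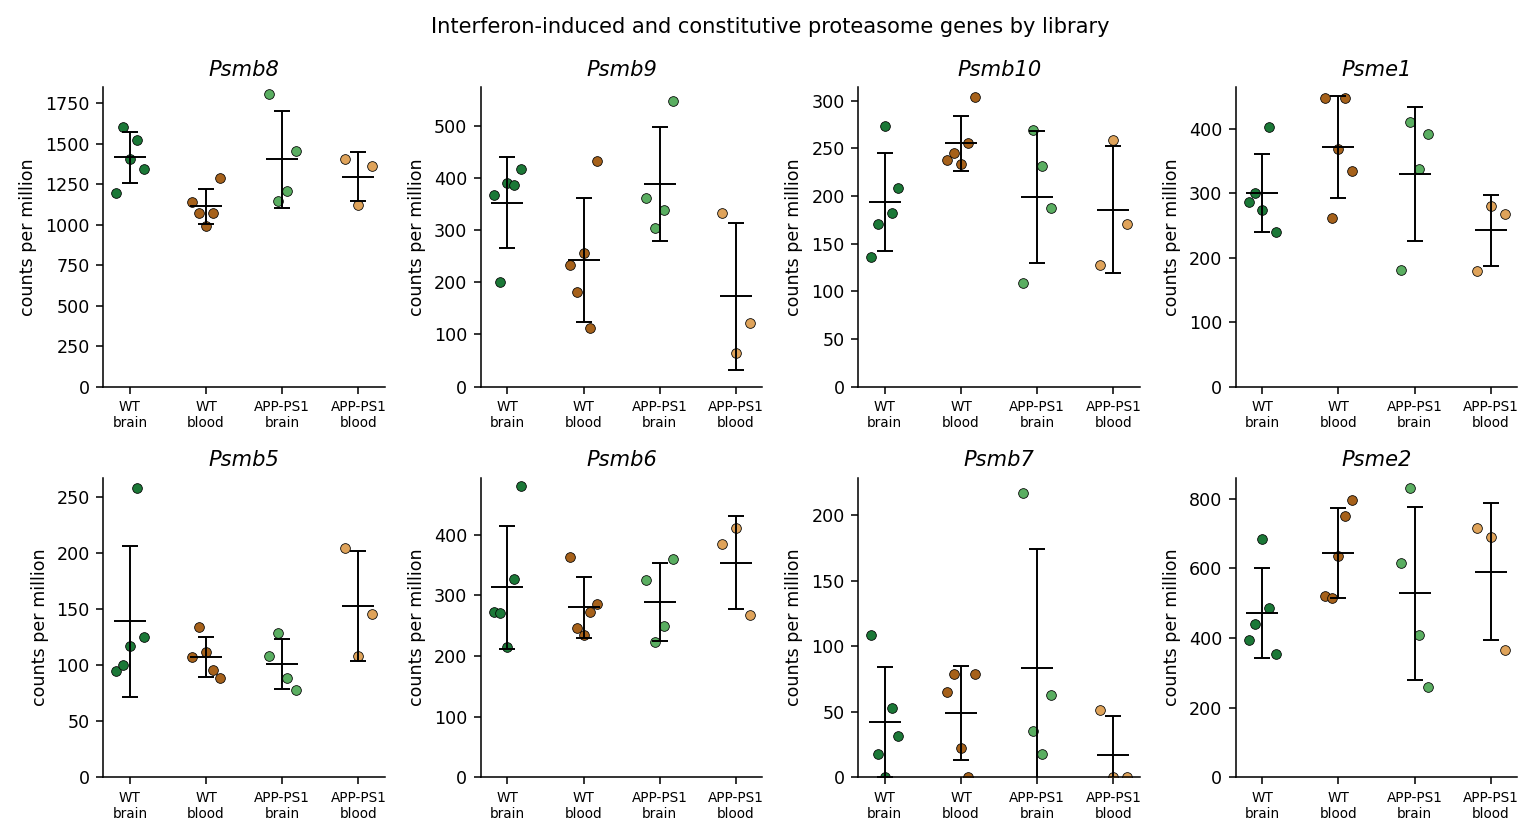
CPM of the interferon-induced genes Psmb8, Psmb9, Psmb10, Psme1 and Psme2 and the constitutive genes Psmb5, Psmb6 and Psmb7 in each library, by group. Points are libraries, horizontal marks are means and bars are 1 SD, drawn down to 0 at most. For each gene drawn, brain and blood overlap within each strain, and the strains overlap within each tissue. The lowest Psmb9 value is in an APP-PS1 blood library.

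Among the constitutive counterparts, Psmb5 carries the chymotrypsin-like site, Psmb6 the caspase-like site and Psmb7 the trypsin-like site. Psmb5 (chr14:54614119-54618022, minus strand) was at 95.3, 100, 117, 258 and 125 CPM in WT brain, 107, 134, 111, 95.8 and 88.4 in WT blood, 109, 129, 88.9 and 78.3 in APP-PS1 brain and 205, 108 and 146 in APP-PS1 blood. WT brain replicate 4 stood far above the rest of its group, and all other groups overlapped. Psmb6 (chr11:70525367-70527858, plus strand) was at 272, 271, 215, 326 and 480 CPM in WT brain, 363, 245, 234, 272 and 285 in WT blood, 326, 222, 248.9 and 360 in APP-PS1 brain and 384, 410 and 268 in APP-PS1 blood. No group of Psmb6 values was apart from another. The log2 fold change of brain over blood was 0.31 (SE 0.42) for Psmb5 and 0.09 (SE 0.30) for Psmb6 in WT mice. The APP-PS1 values were -0.59 (SE 0.58) for Psmb5 and -0.30 (SE 0.40) for Psmb6. Psmb7 (chr2:38588036-38644087, minus strand) had 75 counts in all and did not pass the main filter. Its level was 109, 17.7, 0, 53.1 and 31.3 CPM in WT brain, 65.2, 79.1, 22.3, 0 and 78.6 in WT blood, 217, 35.1, 17.8 and 62.6 in APP-PS1 brain and 51.2, 0 and 0 in APP-PS1 blood. With a lower filter of 5 CPM in 3 libraries, which tested 10167 genes, its log2 fold change of brain over blood was -0.43 (SE 0.74) in WT and 2.11 (SE 1.23, adjusted p = 0.615) in APP-PS1 mice.

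Promoter letters of these genes were read for the motifs through which interferon and proteasome shortage are known to act, in windows from 250 bases before to 50 after the RefSeq start. RefSeq promoters on GRCm38.p6 were matched for 38 of the 45 members. The constitutive Psmb7 was among those without a match. The core of the interferon-stimulated response element, GAAA repeated after any 2 bases, was looked for on both strands. It occurred in 3.44% of all 32851 promoters and for 3.99% of all 27025 genes, the unit in which members are counted. It was found for 1 of the 5 interferon-induced members (Psme1) and for 3 of 32 other subunits (Psmb3, Psmd4 and Psmd9). The gamma-activated site TTCNNNGAA, which reads alike on both strands, occurred in 8.30% of all promoters and for 9.55% of all genes. It was found for 1 of the 5 interferon-induced members (Psmb8) and for 1 of 32 other subunits (Psmd2). The core of the antioxidant response element TGACNNNGC is bound by the factors that raise proteasome genes when proteasomes are short. It occurred in 12.4% of all promoters and for 14.0% of all genes. It was found on either strand for 6 of 32 other subunits (Psmb5, Psmb6, Psmc6, Psmd12, Psmd9 and Psme4) and for 0 of the 5 interferon-induced members. None of the motif matches in a single promoter overlapped another, and a match is a description of letters only. Examples are shown with their surroundings, 5′ to 3′ on the strand of the gene, with the motif in capitals. They are sites of an interferon-type motif in 2 induced genes and of the other motif in 2 constitutive genes, picked for display. A difference in motifs between induced and constitutive genes was not tested. Starts are those of RefSeq and differ from the gene bounds of GENCODE M21 given above and below, within which the sites of Psmb8 and Psme1 lie.
Psmb8, chr17:34198088-34198117, plus strand, gamma-activated site starting 97 bases before the RefSeq start: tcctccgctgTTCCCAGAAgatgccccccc
Psme1, chr14:55578493-55578522, plus strand, response element core read from the other strand, starting at base 10 from the RefSeq start: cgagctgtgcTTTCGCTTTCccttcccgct
Psmb5, chr14:54618023-54618052, minus strand, antioxidant response element core starting 47 bases before the RefSeq start: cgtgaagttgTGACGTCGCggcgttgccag
Psmb6, chr11:70525338-70525367, plus strand, antioxidant response element core starting 9 bases before the RefSeq start: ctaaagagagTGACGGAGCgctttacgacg

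The PA28 cap opens the gate of the core and is formed by the products of Psme1 (alpha) and Psme2 (beta). Psme1 lies at chr14:55578123-55581529 (plus strand) and Psme2 at chr14:55587441-55591113 (minus strand), 5911 bases apart. Psme1 was at 286, 300, 274, 402 and 240 CPM in WT brain and at 447, 261, 368, 447 and 334 CPM in WT blood. For APP-PS1 mice the values were 181, 410, 338 and 392 CPM in brain and 179, 281 and 268 CPM in blood. The highest WT values were in blood and the highest APP-PS1 values in brain, and the groups overlapped in both strains. The log2 fold change of brain over blood was -0.36 (SE 0.29) in WT and 0.49 (SE 0.41) in APP-PS1 mice, and the difference between these, 0.85 (SE 0.50, adjusted p = 0.945), was not called. Psme2 was at 395, 441, 684, 486 and 355 CPM in WT brain and at 522, 514, 636, 751 and 796 CPM in WT blood. For APP-PS1 mice the values were 615, 831, 409 and 258 CPM in brain and 717, 691 and 365 CPM in blood. WT blood libraries were higher than 4 of the 5 WT brain libraries, and the WT log2 fold change of -0.53 (SE 0.28, unadjusted p = 0.0597, adjusted p = 0.711) was not called. The value in APP-PS1 mice was -0.21 (SE 0.36).

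Counts of Psme2 are uncertain because of Psme2b, a near-identical copy on chr11:48945354-48946190 (minus strand). The transcripts are 99.4% identical over 794 aligned bases (GENCODE M21), and 68.7% of all stretches of 50 bases in Psme2b occur unchanged in Psme2. The 5 differences are C312T, A369G, C489T, C519T and C543T, counted from the first base of the Psme2 coding sequence with the Psme2 base first, and all fall on base 3 of a codon. The first of them is shown in capitals within the otherwise shared letters of the 2 transcripts.
Psme2: gcttctggccttgctCgctttggttaagcc
Psme2b: gcttctggccttgctTgctttggttaagcc
Psme2b had 177 counts against 818 for Psme2. Its share of both ran from 0% in WT brain replicates 3 and 4, WT blood replicate 4 and APP-PS1 brain replicate 1 to 40.4% in WT brain replicate 5. It varied by more within each group than between the group means, which were 21.7% in WT brain, 13.9% in WT blood, 14.1% in APP-PS1 brain and 16.8% in APP-PS1 blood. Psme2b had the highest biological coefficient of variation of the 32 members tested, 1.25.

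No proteasome gene was called in any of the 6 comparisons at an adjusted p under 0.05 with edgeR's quasi-likelihood test. In WT brain against WT blood, 0 of 32 members were called, against 0.761% of all genes tested. In APP-PS1 brain against APP-PS1 blood it was 0 of 32, against 0.549%. Averaged over strains it was 0 of 32, against 2.62%. The strain comparisons gave 0 of 32 members, against 0% of genes in brain and 0.0423% in blood, and the difference between strains in the change from blood to brain gave 0 of 32, against 0.0423%. DESeq2 and limma voom also called 0 members in each comparison. The comparisons share libraries, and their counts are not independent.

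At an unadjusted p under 0.05 the share of members lay below the share of all genes in 4 of the 6 comparisons, and above it for strains in brain and for the difference between strains. There was 1 member of 32 (Psma5) in WT brain against blood, where 7.27% of all genes passed, and 3 of 32 (Psma4, Psmb1 and Psmb9) in APP-PS1 brain against blood, where 10.7% passed. Averaged over strains it was 2 of 32 (Psma4 and Psmb9), where 13.4% passed. APP-PS1 against WT gave 4 of 32 (Psma4, Psma5, Psmb1 and Psmd4) in brain, where 4.14% passed, and 2 of 32 (Psma2 and Psma3) in blood, where 8.03% passed. The difference between strains gave 2 of 32 (Psma4 and Psmb1), where 4.95% passed. The median log2 fold change of brain over blood over the 32 members was -0.09 in WT and 0.12 in APP-PS1 mice, beside 0.02 and 0.03 over all genes tested. For the 5 interferon-induced members the medians were -0.36 and 0.13. In WT mice 2 of these 5 were positive and in APP-PS1 mice 4 of 5. For APP-PS1 against WT the median of the 5 was 0.11 in brain and -0.52 in blood, beside -0.04 and -0.05 over all genes.

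How far the data bound a change differed between members. In WT brain against blood, the 95% interval lay within a 2-fold change for 8 of 32 members (Psmb8, Psma7, Psmb3, Psme1, Psmb6, Psmb1, Psma3 and Psmc3), which compares with 29.7% of all genes tested. In APP-PS1 mice it did so for 4 of 32 (Psmb8, Psma7, Psmb3 and Psme2), against 11.5% of genes. For the average over strains it was 15 of 32, against 39.3%. For the remaining members a 2-fold change in one direction or the other was not excluded by its interval.

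**Figure D4:**
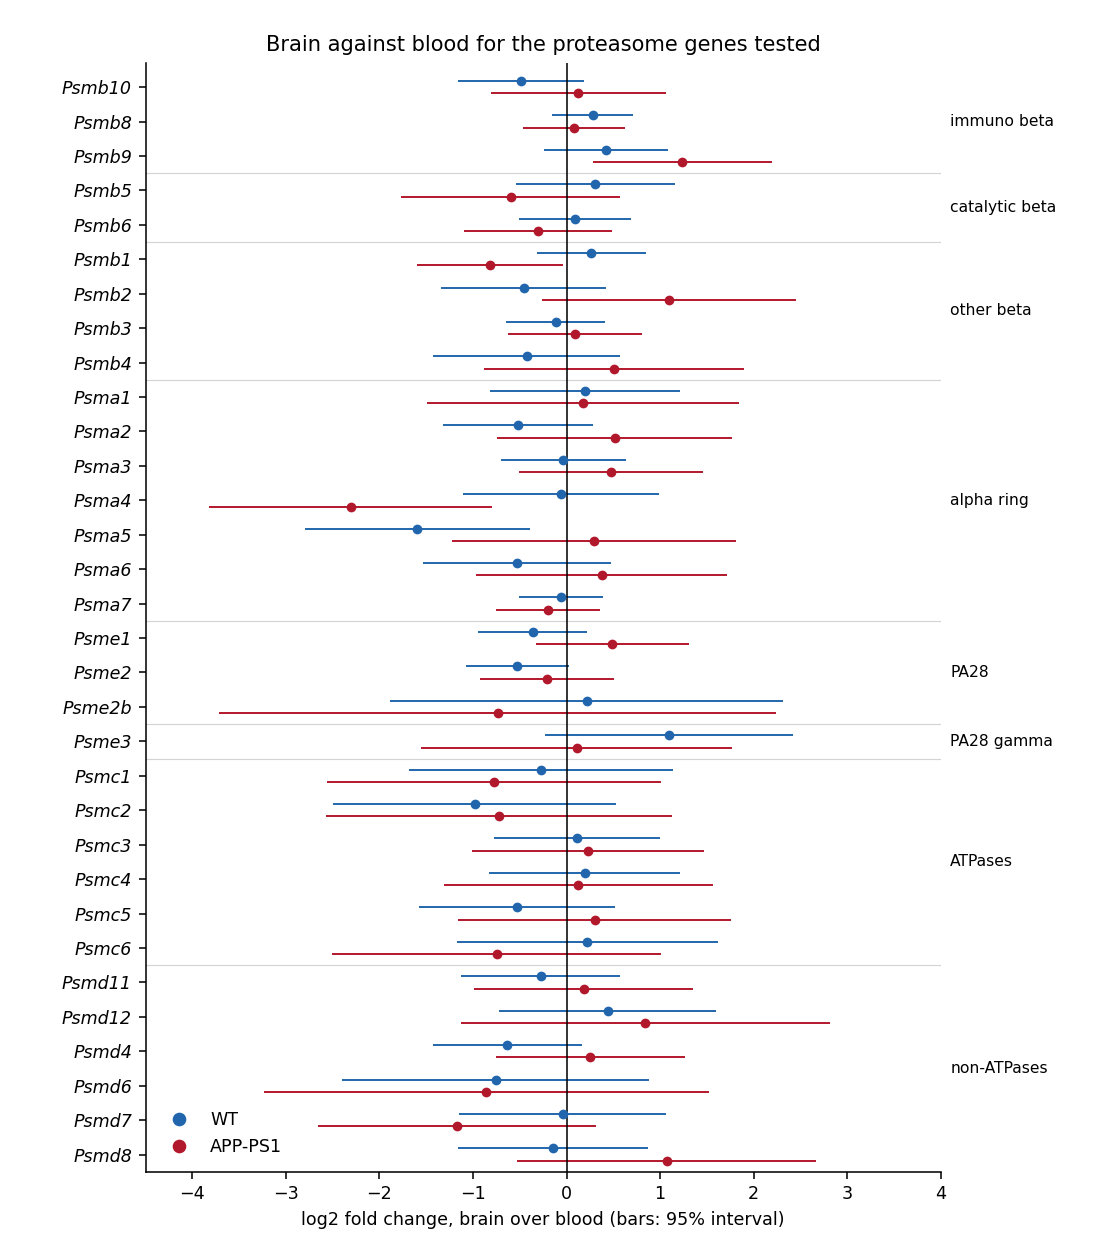
Log2 fold change of brain over blood for the 32 proteasome genes tested, in WT (blue) and APP-PS1 mice (red), with 95% intervals and grouped by role. Most intervals include 0. Those of Psma5 in WT mice and of Psmb9, Psma4 and Psmb1 in APP-PS1 mice do not, and none of these passed the adjustment over all genes.

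The alpha ring was represented by 7 of 8 members. Psma7 was its most abundant gene at 1539 CPM on average over the 17 libraries, followed by Psma3 at 295.6 and Psma2 at 163. Psma7 was at 845 to 1895 CPM in WT brain, 1002 to 1725 in WT blood, 1331 to 1920 in APP-PS1 brain and 1606 to 2074 in APP-PS1 blood. Its log2 fold change of brain over blood was -0.06 (SE 0.22) in WT and -0.20 (SE 0.28) in APP-PS1 mice. The 7 tested genes had a median log2 fold change of -0.06 in WT mice (1 positive, 6 negative) and 0.29 in APP-PS1 mice (5 positive, 2 negative). Psma5 and Psma4 had the most extreme values. Psma5 was at 27.2, 58.9, 19.5, 37.9 and 83.5 CPM in WT brain and 32.6, 253, 201, 128 and 108 CPM in WT blood, which is -1.59 on the log2 scale (SE 0.60, adjusted p = 0.341). Except for WT blood replicate 1, all WT blood libraries were above all WT brain libraries. In APP-PS1 mice Psma5 was at 0, 176, 142 and 164 CPM in brain and 0, 259 and 48.7 CPM in blood, and its value was 0.29 (SE 0.76). Psma4 was at 0, 46.8, 35.6 and 31.3 CPM in APP-PS1 brain and 154, 43.2 and 316 CPM in APP-PS1 blood, which is -2.31 on the log2 scale (SE 0.76, adjusted p = 0.16). In WT mice it was at 39.1 to 177 CPM in brain and 63.3 to 128 CPM in blood, with a value of -0.06 (SE 0.52). The difference between strains for Psma4, -2.25 (SE 0.92, unadjusted p = 0.0178), had an adjusted p of 0.937. Without APP-PS1 blood replicate 3 the Psma4 values were -1.44 for APP-PS1 brain over blood and -1.35 for this difference. Psma2 and Psma3 had the lowest unadjusted p values for APP-PS1 against WT blood, with log2 fold changes of -1.28 (SE 0.57, adjusted p = 0.539) and -0.97 (SE 0.46, adjusted p = 0.585). Leaving out 1 library at a time, the Psma2 value ran from -2.27 (without APP-PS1 blood replicate 2) to -0.95. With sex as a term it was -2.17.

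The structural beta subunits Psmb1, Psmb2, Psmb3 and Psmb4 complete the inner rings without an active site. Psmb3 averaged 598 CPM, Psmb1 396 and Psmb2 132. Psmb3 spanned 470 to 873 CPM in WT brain, 413 to 1051 in WT blood, 289 to 675 in APP-PS1 brain and 292 to 615 in APP-PS1 blood. Its log2 fold change of brain over blood was -0.12 (SE 0.26) in WT and 0.09 (SE 0.36) in APP-PS1 mice. Psmb1 was at 398, 164, 391 and 227 CPM in APP-PS1 brain, 256, 583 and 584 in APP-PS1 blood, 306 to 553 in WT brain and 304 to 527 in WT blood. The APP-PS1 brain and blood ranges of Psmb1 overlapped through 1 blood library. Its log2 fold change of APP-PS1 brain over APP-PS1 blood was -0.82 (SE 0.39, adjusted p = 0.437), and that of APP-PS1 brain over WT brain was -0.77 (SE 0.33, adjusted p = 0.999).

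All 6 ATPases of the regulatory particle base were tested, with mean levels of 68.4 to 125 CPM. Psmc3, Psmc4 and Psmc5 were the most abundant at 125, 103 and 86.0 CPM. In WT brain against blood 3 of 6 had a positive and 3 a negative value, between -0.98 (Psmc2) and 0.22 (Psmc6). The APP-PS1 comparison again had 3 and 3, between -0.78 (Psmc1) and 0.30 (Psmc5). The summed level of the 6 ATPases was 503 ± 125 CPM in WT brain, 513 ± 129 in WT blood, 528 ± 202 in APP-PS1 brain and 658 ± 366 in APP-PS1 blood. The spread in APP-PS1 blood came with 1075 CPM in replicate 1, one of the libraries least like their group, beside 388 and 511 in the others.

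Of the 11 non-ATPase members of the regulatory particle 6 were tested. Psmd4, a ubiquitin receptor, averaged 240.1 CPM, Psmd11, a scaffold subunit of the lid, 139 and Psmd7, the partner of the deubiquitinase Psmd14, 98.9. Psmd4 was at 191, 129, 156, 129 and 157 CPM in WT brain and at 543, 457, 267 and 94.0 CPM in APP-PS1 brain. The APP-PS1 value nearest to WT, the lowest one, came from replicate 4, and the log2 fold change of APP-PS1 over WT brain was 1.02 (SE 0.43, unadjusted p = 0.0205, adjusted p = 0.999). With sex as a term it was -0.35, and among female libraries, with 1 APP-PS1 brain library, it was -0.63, so that strain and sex cannot be told apart for Psmd4. Psmd8, a lid subunit, was the 1 tested member of which groups did not overlap. It was at 51.2, 64.7 and 24.3 CPM in APP-PS1 blood, on only 2, 3 and 1 counts. In WT blood it was at 121, 86.99, 111, 79.9 and 108 CPM. Its log2 fold change was -1.19 (SE 0.76, adjusted p = 0.715). Over all genes tested 6.93% had groups that did not overlap in this comparison.

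Members with lower counts could be tested only with the lower filter, under which 43 members were tested and 0 were called. The share of all genes called with this filter was 0.167% (WT brain against blood), 0.157% (APP-PS1 brain against blood), 0.541% (average over strains), 0% (strains in brain), 0.0689% (strains in blood) and 0.00984% (difference between strains). Psmd2, the largest ubiquitin-binding scaffold beside Psmd1, had no count in the 3 APP-PS1 blood libraries. It was at 72.3, 105, 35.6 and 125 CPM in APP-PS1 brain, 20.9 to 75.9 in WT brain and 11.1 to 51.2 in WT blood. Pooled over APP-PS1 brain (29 counts), Psmd2 was at 4.12 times a floor of 3 counts over the APP-PS1 blood group (23.7 CPM). Pooled over WT blood (21 counts), it was at 1.49 times this floor. These ratios take the 29 and 21 counts as exact and are no lower bounds. The edgeR test of APP-PS1 brain against blood gave an adjusted p of 0.249. Psmd1 had no count in the 4 APP-PS1 brain libraries, where 3 counts correspond to 10.1 CPM. Pooled over WT brain (17 counts), Psmd1 was at 3.22 times that level, a ratio that again takes the counts as exact. The WT brain libraries were at 0, 58.9, 58.6, 30.3 and 0 CPM and overlapped APP-PS1 brain. By the edgeR test, the adjusted p of APP-PS1 against WT brain was 0.77. Psmd14 was at 72.3, 93.7, 71.1 and 54.8 CPM in APP-PS1 brain, above the 51.2, 43.2 and 48.7 CPM of APP-PS1 blood, and its adjusted p was 0.787. These Psmd14 values rest on 21 counts in APP-PS1 brain and 6 in APP-PS1 blood. Among the 2366 genes tested with the main filter, which left out Psmd2 and Psmd14, 9.04% did not overlap between these groups. Between APP-PS1 blood and WT blood, where Psmd2 did not overlap either, it was 6.93%. Psmd3 and Psmd13 averaged 37.2 and 29.5 CPM.

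Other caps and helpers were present at low levels. Psme3, which forms the nuclear PA28 gamma cap, averaged 72.8 CPM, and its log2 fold change of brain over blood was 1.10 (SE 0.66, adjusted p = 0.759) in WT and 0.11 (SE 0.83) in APP-PS1 mice. Psme4, which encodes the PA200 cap, averaged 23.9 CPM, with 0, 0, 17.8 and 0 CPM in APP-PS1 brain and 25.6, 43.2 and 48.7 CPM in APP-PS1 blood. The Psme4 values rest on 1 count in APP-PS1 brain and 5 in APP-PS1 blood. These groups did not overlap, beside 9.04% of the genes tested with the main filter, and the adjusted p was 0.591 with the lower filter. The assembly chaperones of the base, Psmd10, Psmd5 and Psmd9, averaged 51.95, 43.9 and 30.8 CPM. Psmb11, the active-site subunit of the thymus-specific proteasome, and Psma8, an alpha subunit of the testis, had no count in any library. For these a count of 0 allows up to 5.04 CPM over WT blood and up to 23.7 CPM over APP-PS1 blood, counting error only. Psmc3ip matched the name rule with 5 counts but encodes a cofactor of meiotic recombination rather than a subunit.

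How the libraries were made is not known here, and levels per length compare genes only if reads cover whole transcripts. If reads come from 1 end, this order and the share per length are distorted. On a scale of mean CPM per kilobase of transcript, Psma7 came first at 1684, followed by Psmb8 at 801, Psmb3 at 780, Psme2 at 579, Psmb6 at 382 and Psme1 at 286. Psmb9 was at place 8 with 220 and Psmb10 at place 10 with 162, while the constitutive Psmb5 was at place 12 with 137 and Psmb7 at place 29 with 42.6. Psma3, the next alpha ring gene after Psma7, was at 104. The non-ATPase subunits Psmd2 (14.4) and Psmd1 (8.37) were near the end.

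**Figure D5:**
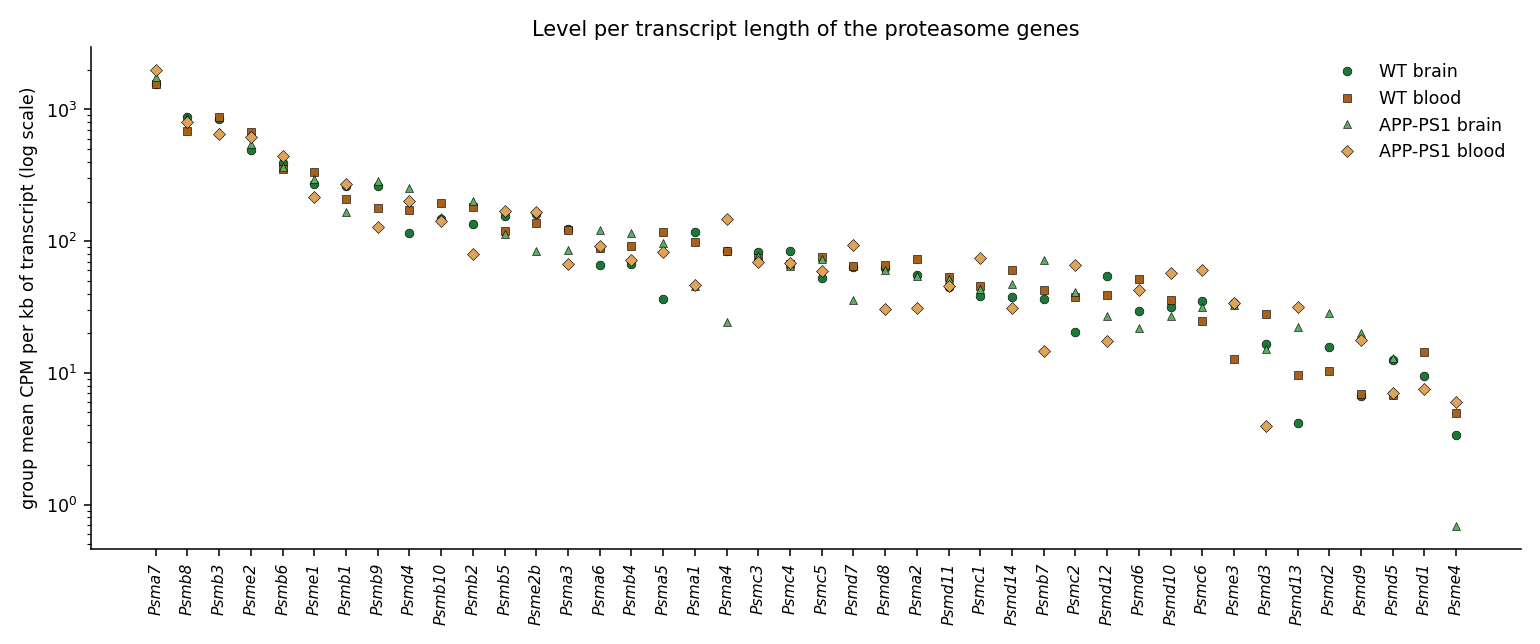
Group means of CPM per kilobase of transcript on a log axis for the 42 members averaging above 5 CPM, ordered by the mean over the 17 libraries. Group means at 0 (Psmd2 in APP-PS1 blood and Psmd1 in APP-PS1 brain) are not drawn. Psma7 leads in all 4 groups, and the group means differ mainly among the low members on the right, which rest on few counts. None of the members was called with either filter.

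Genes that work with the proteasome were described from 4 lists, of which 41 of 43 symbols were found and 29 were tested. In WT brain against blood 0 were called (17 positive, 12 negative), and in APP-PS1 brain against blood 0 (18 positive, 11 negative). In the strain comparisons 0 were called in brain and 0 in blood. Averaged over strains 1 was called, against 2.62% of all genes tested. Irf9, a transcription factor of type I interferon signalling, was 2.14 higher in brain on the log2 scale (SE 0.59, adjusted p = 0.0309 by edgeR's quasi-likelihood test). It had 67 counts in WT brain, 30 in WT blood, 34 in APP-PS1 brain and 2 in APP-PS1 blood. Its WT ranges overlapped, at 45.5 to 254 CPM in brain and 0 to 88.4 in blood. Its APP-PS1 ranges, 70.2 to 217 and 0 to 25.6 CPM, did not, beside 9.04% of the genes tested. Whether this call holds without single libraries was not tested. For MHC class I loading, 9 of 11 genes were tested and 0 called, and the most abundant were B2m at 6017 CPM, H2-D1 at 4820.4 and H2-K1 at 3171. Their log2 fold changes of brain over blood averaged over strains were 0.07 (SE 0.15), 0.15 (SE 0.15) and 0.04 (SE 0.16). Tap1, which shares its start region with Psmb9, had 1.06 (SE 0.49, unadjusted p = 0.0369, adjusted p = 0.586) in WT mice and -0.43 (SE 0.66) in APP-PS1 mice. Among 7 of 9 interferon regulators tested, the most abundant were the receptor gene Ifngr1 at 1008 CPM and the class I transactivator Nlrc5 at 274. Averaged over strains, Nlrc5 had a log2 fold change of 0.40 (SE 0.29) and was not called. Of 5 ubiquitin genes 4 were tested and 0 called, among them Ubb at 5643 CPM and Rps27a at 1521. Of 18 assembly and associated factors 9 were tested and 0 called, led by Shfm1, a small regulatory particle subunit, at 565 CPM and the core chaperone Pomp at 244.

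Across the 17 libraries the correlations among the 5 interferon-induced genes were mixed in sign. On log2 CPM, Pearson's r was 0.35 between Psmb8 and Psmb9, -0.46 between Psmb8 and Psmb10, -0.16 between Psmb9 and Psmb10 and 0.68 between Psmb10 and Psme1. The other pairs of the 5 lay between -0.37 (Psmb8 and Psme2) and 0.44 (Psmb10 and Psme2). These are descriptions over 17 libraries that share depth and group, with no test. Counts were as low as 3 in a library for Psmb9 and Psmb10, and the part of counting error in r was not tested. The genes outside the family most like the mean of the 5 were Atp5c1 (r = 0.77), Selk (0.73), Smap1 (0.72), Ndufv2 (0.71) and Cd3g (0.70). They were picked as the highest r among all tested genes outside the family. How high r would be from such picking alone was not computed.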

How the data were processed

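The authors deposited whole-number counts per gene and library for CD8+ T cells of 17 libraries, not normalized. GRCm38 is the build in the submitters' processing notes, which list HTSeq 0.11.2, Bowtie2 2.2.2, FastQC and DESeq2 with no roles. Neither the library chemistry nor the strand setting is stated there, which leaves counts of overlapping or near-identical genes, and levels per transcript length, uncertain. Groups came from the labels. Counts were tested with edgeR 4.0.16 (R 4.3.3): TMM scaling, filterByExpr (a minimum near 117 CPM in 3 or more libraries, leaving 2366 genes), robust dispersions, 1 mean per group and quasi-likelihood tests, with Benjamini-Hochberg adjustment over all genes tested and calls at an adjusted p under 0.05. Each SE was derived from the log2 fold change and its F statistic. CPM use total counts. Alternatives were RLE factors, DESeq2 1.42.0, limma voom (3.58.1), other filters, sex as a term, female libraries only, only the groups compared and leaving out each library. Counting Psme2 with Psme2b, leaving out the 2 libraries least like their group and the share per kilobase were chosen after seeing the data. The steps were tested on simulated data. Intervals of shares (95%) and floors of 3 counts cover counting error only. Coordinates and transcripts are from GENCODE M21.

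The members and lists were chosen with earlier results of these data known. The rule for named genes takes the 5 interferon-induced genes, Psmb5, Psmb6, Psmb7, every called member and, per role or pathway list, up to 3 of the highest mean CPM, members under 10 counts, and the 5 genes most like the mean of the interferon-induced ones. Other members were named for their values after these were seen. Psma5, Psma4, Psma2, Psma3 and Psmb1, singled out by unadjusted p, and Psmd8, Psmd1, Psmd2, Psmd14 and Psme4, by groups apart or at 0, are such members. Some genes that this rule takes are not reported here.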

Additional observations from a re-analysis of the deposited data

Results flagged for a closer look

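In 4 of 114 groups of 4 or 5 libraries, 1 library lay far from the others by Dixon's criterion at the 95% level, which chance alone passes in about 1 of 20 groups. Psmb9 was at 200.1 CPM in WT brain replicate 2, with the other 4 WT brain libraries at 367 to 417 CPM. Psmc2 was at 5.89 CPM in the same library, against 39.1 to 52.2 CPM. Psmb5 was at 258 CPM in WT brain replicate 4, against 95.3 to 125 CPM. Psmd6 was at 11.7 CPM in APP-PS1 brain replicate 2, against 35.6 to 39.2 CPM.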

How the results depend on the processing

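Of 160 fits under other settings, 157 called no proteasome gene and 3 called 1, Psmb9 in brain against blood averaged over strains: without WT blood replicate 5 or APP-PS1 blood replicate 1 (0 to 1 calls when leaving out 1 library) and without the 2 libraries least like their group (1 call). The share of active-site counts was 91.2%, 91.1%, 93.1% and 89.6% (WT brain, WT blood, APP-PS1 brain, APP-PS1 blood) from Psmb8 and Psmb5 alone, and 69.0%, 67.3%, 70.7% and 63.1% per kilobase. No paired analysis was possible because the labels give no numbers or animals shared between groups.

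Some log2 fold changes changed sign. As no member was called in the main fit, all of these were values not called. The cause of these changes was not tested, except that lower filters moved the median of all genes. At 5 CPM it moved by 0.15 in APP-PS1 brain against blood, -0.26 in APP-PS1 against WT blood and 0.19 in the difference between strains. With no filter it moved by 0.14, -0.27 and 0.19. Female libraries alone moved it by 0.13, -0.13 and 0.16. For APP-PS1 against WT blood, Psmb8 was at -0.15 at 5 CPM and -0.16 with no filter, and Psmb6 at -0.046 and -0.052. For APP-PS1 against WT brain with sex as a term, Psmb8 was at 0.047, Psme2 at -0.73, Psmb10 at -0.014 and Psmd4 at -0.35. Among female libraries Psmb8 was at 0.075, Psmb6 at 0.22, Psme2 at -0.80 and Psmd4 at -0.63 there. Psmb6 was then at 0.52 in APP-PS1 brain against blood, -0.23 in APP-PS1 against WT blood, 0.30 in the average over strains and 0.45 in the difference between strains. With Psme2b counted as Psme2, Psme2 was at -0.070 in APP-PS1 against WT brain. Leaving out 1 library at a time moved values across 0 in these ranges. In WT brain against blood, Psmb6 ran from -0.13 to 0.21 and Psmb5 from -0.047 to 0.41. In APP-PS1 brain against blood, Psme2 ran from -0.61 to 0.065 and Psmb10 from -0.12 to 0.54. In APP-PS1 against WT brain, Psmb8 ran from -0.15 to 0.023, Psmb9 from -0.10 to 0.29, Psmb6 from -0.33 to 0.076, Psme2 from -0.26 to 0.40 and Psmb10 from -0.061 to 0.26. Psmb6 ran from -0.0038 to 0.36 in APP-PS1 against WT blood. Averaged over strains, Psme1 ran from -0.052 to 0.15 and Psmb10 from -0.31 to 0.011. In the difference between strains, Psme2 ran from -0.080 to 0.60. At 27646 to 214670 counts a library, 13 of 45 members could not be tested with the main filter.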
